A study of Mus musculus with 2 samples.

Results

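The nuclear genes for the subunits of oxidative phosphorylation were examined complex by complex in 2 RNA libraries labelled as macrophages from mouse dorsal root ganglia. Members were the genes whose symbol starts with Ndufa, Ndufb, Ndufc, Ndufs, Ndufv, Uqcr, Cox4, Cox5, Cox6, Cox7, Cox8 or Atp5, together with Sdha, Sdhb, Sdhc, Sdhd, Cyc1 and Cycs, leaving out the Ndufaf assembly factors and pseudogene symbols. This rule found 86 of the 49315 genes in the table, of which 38 fall under complex I, 4 under complex II, 9 under complex III, 18 under complex IV and 16 under complex V, with cytochrome c (Cycs) counted apart. The CIH group comes from mice under chronic intermittent hypoxia, in which chamber oxygen cycled between 8% and 21% every 6 min, 10 times an hour, for 8 h a day over 14 days. The normoxia group comes from mice given sham cycles in the same chambers at 21% oxygen on the same schedule. The interval between the last exposure and the experiment was about 18 h in both groups. The sources used here do not give the strain, sex or age of the mice, how many mice stand behind a library, or how macrophages were obtained. There was 1 library a group, so no difference below has a replicate check and no test between the conditions was possible. The columns carry codes, and only the initial letter ties the CIH column to its group.

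Oxidative phosphorylation takes place in the inner mitochondrial membrane. Complex I oxidises NADH and complex II oxidises succinate, both pass electrons to ubiquinone, complex III hands them to cytochrome c, and complex IV passes them to oxygen. Complexes I, III and IV pump protons, and complex V, the ATP synthase, uses the return of the protons to make ATP. Complex II is built from nuclear genes alone, whereas the other complexes also hold subunits that the mitochondrial genome encodes. In macrophages the balance between this pathway and glycolysis is known to differ with the state of activation. The transcription factors NRF1, GABP of the ETS family and YY1 are known to bind promoters of many nuclear subunit genes.

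Promoter sequence was available for 68 of the 86 members in the RefSeq table on GRCm38.p6. Within the 250 bases before the transcription start, the NRF1 motif GCGCANGCG was found on either strand in 15 members (22.1%), and in 5.86% of all 27025 genes. The ETS motif CCGGAAG was found in 12 members (17.6%) and in 7.83% of all genes, and the YY1 motif ATGGCGG in 4 members (5.88%) and in 2.58% of all genes. These letters were counted as a description, and members with and without counts in the CIH library both held them. Of the 20 matched members counted in both libraries, 6 held the NRF1 motif and 7 the ETS motif, and of the 26 counted in normoxia alone, 5 held the NRF1 motif and 4 the ETS motif. The following 4 stretches of 100 bases show such motifs in complexes II to V, each from a member of its complex with an NRF1 or ETS motif close to the start. The choice did not cover all members, so these need not be the ones with most counts. Each lies directly before the annotated gene, is read 5′ to 3′ on the minus strand of GRCm38.p6, and has the motif in capitals. In Sdha (chr13:74350281-74350380, 2 NRF1 motifs), Uqcrh (chr4:116075072-116075171, an ETS motif), Cox6a1 (chr5:115348982-115349081, an NRF1 motif) and Atp5e (chr2:174464106-174464205, an ETS motif) the letters were as printed here, where CTTCCGG is the ETS motif on the opposite strand.
Sdha: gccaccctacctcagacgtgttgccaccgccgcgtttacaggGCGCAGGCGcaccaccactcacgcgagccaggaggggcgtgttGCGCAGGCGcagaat
Uqcrh: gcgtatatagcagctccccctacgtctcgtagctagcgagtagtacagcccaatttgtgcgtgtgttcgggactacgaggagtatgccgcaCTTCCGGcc
Cox6a1: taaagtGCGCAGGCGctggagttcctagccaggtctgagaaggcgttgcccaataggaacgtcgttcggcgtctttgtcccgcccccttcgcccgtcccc
Atp5e: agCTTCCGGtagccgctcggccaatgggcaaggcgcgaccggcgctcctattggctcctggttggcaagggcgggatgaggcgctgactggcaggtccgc

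The CIH library held 145056 counts over 2050 genes and the normoxia library 2171348 counts over 4640 genes, with 1158 genes counted in both. Among genes with at least 10 counts that were found in only 1 of the libraries, the median was 39 counts in CIH and 229 in normoxia. Taken as the reads that stem from 1 starting molecule, an assumption that was not tested, these come to about 3719 molecules in CIH and 9482 in normoxia. Of 10 macrophage markers 1 was counted in CIH and 9 in normoxia, with 0.00414% of counts in CIH and 0.449% in normoxia, and Adgre1, Cd68, Csf1r and the C1q genes were at 0 in CIH. Neutrophil markers took 9.06% of counts in CIH and 1.65% in normoxia (8 of 11 counted in each), and erythroid markers 7.87% in CIH and 9.53% in normoxia (6 of 7 and 7 of 7). Only 5 neutrophil markers were counted in both libraries. Of the others, 3 (Mmp8, Mmp9 and Mpo) were at 0 in CIH and 3 (Ly6g, Elane and Cxcr2) at 0 in normoxia. All but 1 of the macrophage markers were at 0 in the CIH library, and whether it is a macrophage library could not be settled. Fewer cells of a type and less RNA per cell cannot be told apart in such libraries, and the part of these markers in the results below was not tested.

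Of the 86 members, 36 were counted in CIH and 57 in normoxia. In detail, 29 were counted in both libraries, 7 in CIH alone, 28 in normoxia alone and 22 in neither. A counted member had a median of 51 counts in CIH (range 2 to 182) and 252 in normoxia (range 1 to 1668). In estimated molecules the medians were 1.31 in CIH and 1.10 in normoxia, and 34 of the 36 members counted in CIH and 49 of the 57 counted in normoxia lay under 3 molecules. A count of 0 allows up to 3 reads, which is 20.7 CPM (counts put on a common library size) in CIH and 1.38 CPM in normoxia. At 3 estimated molecules the limit is 807 CPM in CIH and 316 CPM in normoxia. The highest of the 28 members counted in normoxia alone, Cox8a, held 364 CPM there, so the absence of each of them from CIH is within what so few molecules allow. Of the 7 counted in CIH alone, Ndufb7 (820 CPM) and Sdhc (379 CPM) exceed the limit of the normoxia library and the other 5 lie below it.

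**Figure D1:**
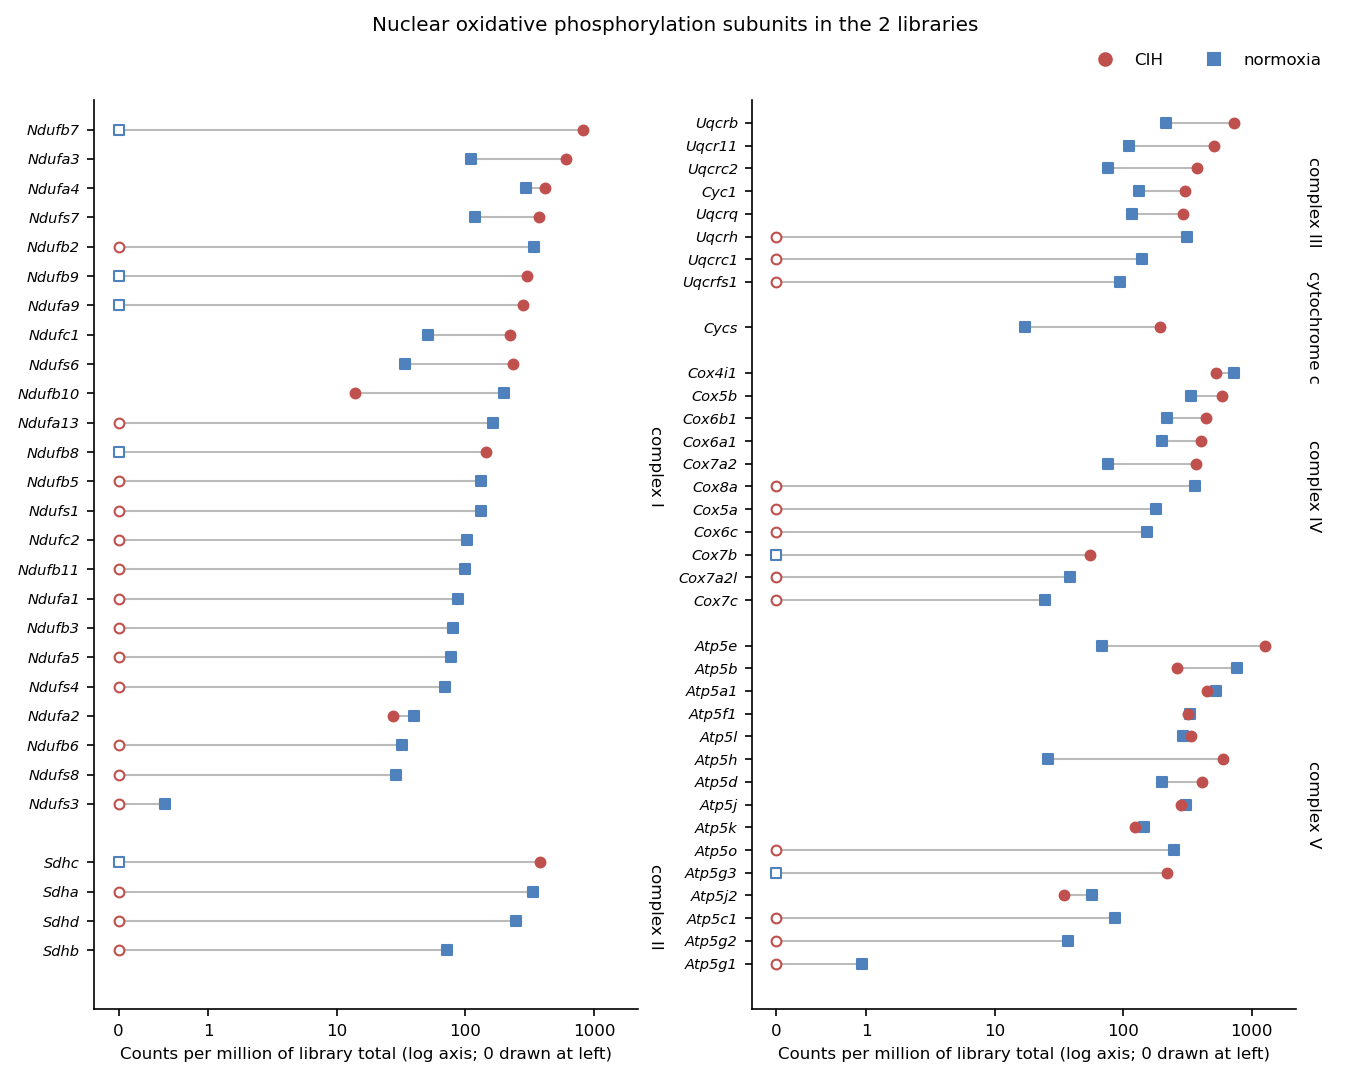
CPM on a log axis for members counted in at least 1 library, all but 1 of them drawn, grouped by complex, with CIH and normoxia points for each member and members at 0 drawn at the margin. Most members that lack a CIH point have normoxia values between 20 and 400 CPM, and Atp5e is the highest point in CIH at 1255 CPM.

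A larger share of members than of all genes at like counts was found in both libraries. Of the members with at least 100 and under 300 counts in normoxia, 10 of 21 (47.6%) were also counted in CIH, against 18.3% of all genes in that range. From 300 to under 1000 counts, 11 of 21 members (52.4%) and 30.3% of all genes were counted in CIH, and with 1000 or more all 3 members (Atp5b, Cox4i1 and Atp5a1) and 69.1% of all genes were. In the other direction, 29 of the 36 members counted in CIH (80.6%) were also counted in normoxia, against 56.5% of all genes counted in CIH. These shares are descriptions of the libraries and no test was run on them.

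**Figure D2:**
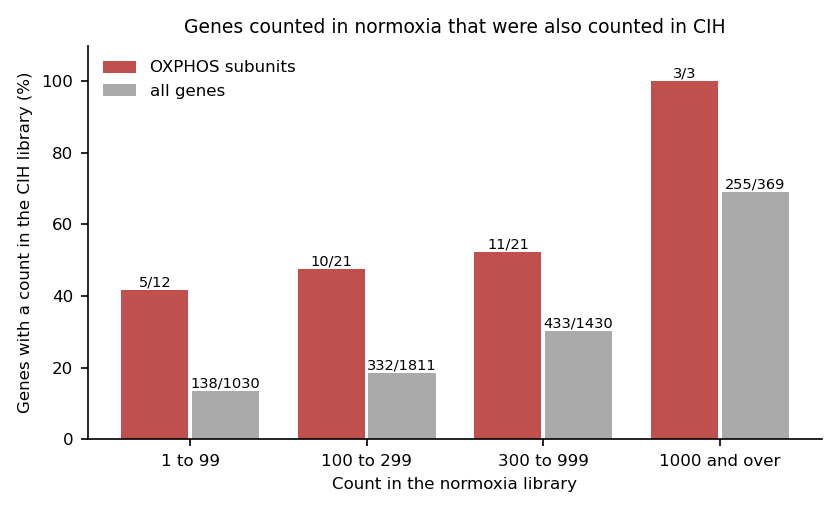
Percent of genes also counted in CIH (vertical axis) by their count in normoxia (horizontal axis, 4 ranges), for the members and for all genes. The members stand above all genes in each range, with 41.7%, 47.6%, 52.4% and 100% of members against 13.4%, 18.3%, 30.3% and 69.1% of all genes.

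Ratios are given as CIH over normoxia on total counts, with exact 95% intervals on reads. These intervals take each read as independent and cover counting error at most. A gene was called when it had at least 50 counts over both libraries, a ratio at least 2-fold in either direction and an interval that excludes 1, with a count of 0 taken as 3. Of 57 members with enough counts, 18 (31.6%) were called higher in CIH, where 16.1% of the 4215 genes with enough counts were. A further 23 members (40.4%) were called lower, where 66.9% of all such genes were, and 16 met neither call. With TMM scaling (trimmed mean of M values, which rests on genes counted in both libraries) 12 members were called higher and 32 lower, against 11.9% and 75.5% of all such genes. Of the 23 called lower, 21 had 0 counts in CIH, and of the 18 called higher, 2 had 0 counts in normoxia. The filter of 50 summed counts is passed more readily through the deeper normoxia library, for members and all genes alike. It let through 26 of the 28 members counted in normoxia alone and 2 of the 7 counted in CIH alone. The 21 called lower at 0 in CIH passed it through their normoxia counts alone. On estimated molecules, 2 members (3.51%) were called higher, Ndufb7 and Atp5e, against 0.83% of all genes, and 0 members were called lower, against 0.285% of all genes. A 0 is there taken as 3 molecules, and the most that a member at 0 in CIH held in normoxia was 3.45 (Cox8a). Such a member could therefore not be called lower on estimated molecules. The median log2 ratio was −0.59 over the 57 members and −4.45 over all 4215 genes. With each 0 taken as 3 counts the medians were −0.49 and −1.95. Among genes counted in both libraries, 20 of 29 members (69.0%) and 68.5% of all genes had a ratio above 1, nearly equal shares. With TMM these were 62.1% of members and 48.5% of all genes. By the call on total counts, 16 of these 29 members were higher and 2 lower, against 41.1% and 15.1% of the 1108 such genes with enough counts, and with TMM 10 were higher and 6 lower, against 24.9% and 27.9%.

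Complex I, the NADH dehydrogenase, takes in electrons at its N module, passes them to ubiquinone at its Q module and pumps protons in its membrane arm. Of its 38 members, 8 were counted in both libraries, 4 in CIH alone, 13 in normoxia alone and 13 in neither. Of the 21 with enough counts, 6 were called higher and 11 lower in CIH. Over all 4215 genes with enough counts, 16.1% were called higher and 66.9% lower. The N module was the least counted, with 6 of its 10 members at 0 in both libraries, among them the core subunits Ndufv1, which binds NADH, and Ndufv2. The third core subunit of that module, Ndufs1, had 0 counts in CIH and 285 in normoxia. All 5 members of the Q module were counted in normoxia, though Ndufs3 held only 1 count there, and 2 of the 5 were counted in CIH.

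Ndufs7, a core subunit of the Q module, had 54 counts in CIH and 260 in normoxia, a ratio of 3.11 (2.27 to 4.18), and was called higher.

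Among the accessory subunits of complex I, which surround the core, values in the 2 libraries ran in both directions. Ndufa3 had 88 counts in CIH and 239 in normoxia (ratio 5.51, interval 4.27 to 7.07), though its exons overlap Tfpt on the opposite strand. The strand setting of the counting is not given, so reads of the pair cannot be told apart. Ndufs6, an accessory subunit of the N module, had 34 counts in CIH and 73 in normoxia, a ratio of 6.97 (4.50 to 10.6). It overlaps Mrpl36 on the opposite strand and has 1 near-identical copy. Ndufc1 of the membrane arm had 32 counts in CIH and 112 in normoxia, a ratio of 4.28 (2.79 to 6.38). These were all called higher, whereas Ndufb10, which sits in the distal membrane arm, was called lower with 2 counts in CIH and 432 in normoxia, a ratio of 0.0693 (0.00837 to 0.252). Ndufa2 had 4 counts in CIH and 86 in normoxia and was not called. Ndufa4, named for complex I but since assigned to complex IV, had 60 counts in CIH and 643 in normoxia, a ratio of 1.40 (1.05 to 1.82). TMM scaling put it below 1, at 0.80.

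Ndufb7, another accessory subunit of the membrane arm (ENSMUSG00000033938, chromosome 8, 83566671 to 83571626), had 119 counts in CIH and 0 in normoxia. Its ratio has a lower limit of 475 on reads and 1.08 on estimated molecules. No other gene's exons overlap it and no near-identical copy was found among other transcripts. The other members of complex I counted in CIH alone were Ndufb9 with 44 counts, Ndufa9 with 41 and Ndufb8 with 21, each with too few counts for a call. Conversely, Ndufb2 had 0 counts in CIH and 743 in normoxia, Ndufa13 had 0 and 359, and Ndufb5 had 0 and 289. The other 10 members counted in normoxia alone held 1 to 285 counts there. Of the Ndufb subunits of the membrane arm, Ndufb10 alone was counted in both libraries. Over all genes, 25.0% of those counted in normoxia were also counted in CIH.

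Complex II, succinate dehydrogenase, is also an enzyme of the tricarboxylic acid cycle and had none of its 4 subunits counted in both libraries. At the counts of its 3 subunits found in normoxia, 18.3% to 30.3% of all genes were also counted in CIH. Sdha, the flavoprotein that oxidises succinate (ENSMUSG00000021577, chromosome 13, 74322254 to 74350280), had 0 counts in CIH and 734 in normoxia. Sdhb, its iron-sulphur partner, had 0 counts in CIH and 156 in normoxia, and the membrane anchor Sdhd had 0 and 533. Sdhc, the other membrane anchor (ENSMUSG00000058076, chromosome 1, 171127165 to 171150603), had 55 counts in CIH and 0 in normoxia, with a lower limit of the ratio of 216 on reads and 0.201 on estimated molecules. By the call on reads 1 subunit was higher and 3 were lower, while on estimated molecules 0 of the 4 were called. With a 0 taken as 3 molecules, none of the 4 could be. Over all genes with enough counts, 16.1% were higher and 66.9% lower on reads. The whole complex came to 1.41 estimated molecules in CIH and 6.21 in normoxia.

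Complex III, the cytochrome bc1 complex, had 5 of 9 members counted in both libraries, 3 in normoxia alone, 0 in CIH alone and 1, Uqcr10, in neither. All 5 counted in both were called higher in CIH on total counts, where 41.1% of all genes counted in both were. With TMM, Uqcr11 (2.61) and Uqcrc2 (2.81) stayed past 2-fold, and Uqcrb (1.94), Uqcrq (1.43) and Cyc1 (1.31) did not. Uqcrb, a small subunit at the ubiquinone site (ENSMUSG00000021520, chromosome 13, 66900617 to 66905378), had 105 counts in CIH and 465 in normoxia, a ratio of 3.38 (2.71 to 4.19). It has 3 near-identical copies among the transcripts of other genes, so its reads may be shared with them. Uqcr11, a small accessory subunit, had 73 counts in CIH and 240 in normoxia, a ratio of 4.55 (3.45 to 5.94). Uqcrc2, a core protein of the matrix side whose exons overlap Pdzd9 on the opposite strand, had 54 counts in CIH and 165 in normoxia, a ratio of 4.90 (3.53 to 6.70). Cyc1, the cytochrome c1 that carries the electron out of the complex, had 44 counts in CIH and 287 in normoxia, a ratio of 2.29 (1.63 to 3.16). Uqcrq, a small subunit, had 42 counts in CIH and 252 in normoxia, a ratio of 2.49 (1.75 to 3.47).

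The 3 members of complex III counted in normoxia alone were all called lower in CIH. Uqcrh, the hinge protein that binds cytochrome c1 (ENSMUSG00000063882, chromosome 4, 116066965 to 116075071), had 0 counts in CIH and 676 in normoxia. Uqcrc1, the partner of Uqcrc2 in the core, had 0 and 301, and Uqcrfs1, the Rieske iron-sulphur protein, had 0 and 204. The sister core proteins thus lay on opposite sides, Uqcrc2 higher and Uqcrc1 lower in CIH on reads. On estimated molecules neither was called, and Uqcrc1, at 0 in CIH, could not be. Uqcrc2 came to 1.38 molecules in CIH and 0.721 in normoxia, and Uqcrc1 to 0 in CIH and 1.31 in normoxia. Cytochrome c (Cycs), the mobile carrier between complexes III and IV that also acts in apoptosis, had 28 counts in CIH and 37 in normoxia, a ratio of 11.3 (6.68 to 19.02). Cycs has 4 near-identical copies among other transcripts, and its counts come to less than 1 estimated molecule in each library, 0.718 in CIH and 0.162 in normoxia.

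Complex IV, cytochrome c oxidase, had 5 of its 18 members counted in both libraries, 1 in CIH alone, 5 in normoxia alone and 7 in neither. The 7 at 0 in both were the isoforms of restricted tissues, namely Cox4i2, Cox6a2, Cox6b2, Cox7a1, Cox7b2, Cox8b and Cox8c. Cox4i1, the widely expressed form of subunit 4 (ENSMUSG00000031818, chromosome 8, 120668222 to 120674207), had 77 counts in CIH and 1566 in normoxia, a ratio of 0.736 (0.578 to 0.926) that was not called on total counts. With TMM it was 0.422, past 2-fold lower, and its exons overlap Emc8 on the opposite strand. Cox5b had 85 counts in CIH and 728 in normoxia, a ratio of 1.75 (1.38 to 2.19), and TMM scaling brought it to 1.00. Cox6a1 and Cox6b1, both small subunits encoded in the nucleus, lay on either side of the 2-fold threshold. Cox6b1 had 64 counts in CIH and 471 in normoxia (ratio 2.03, with TMM 1.17) and was called higher, and Cox6a1 had 58 counts in CIH and 437 in normoxia (ratio 1.99) and was not.

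Cox7a2 had 53 counts in CIH and 165 in normoxia, the highest ratio among the 5 members of complex IV counted in both, at 4.81 (3.46 to 6.59). Cox7b, another small subunit, had 8 counts in CIH and 0 in normoxia. Counts in normoxia alone were led by Cox8a (ENSMUSG00000035885, chromosome 19, 7215153 to 7217616), the widely expressed form of subunit 8, with 0 counts in CIH and 791 in normoxia. Per length it was the highest member in normoxia, at 0 TPM in CIH and 1223 TPM in normoxia (TPM divides counts by gene length). Cox5a, an early assembly partner of Cox4i1, had 0 counts in CIH and 389 in normoxia, and Cox6c had 0 and 330. Of the 10 members with enough counts, 2 were called higher, 3 lower and 5 neither, against 16.1% higher and 66.9% lower over all genes.

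Complex V, the ATP synthase, had the most members in both libraries, 10 of 16, with 1 in CIH alone, 4 in normoxia alone and 1 in neither. Of 13 with enough counts, 3 were called higher and 3 lower, against 16.1% and 66.9% of all genes, and 7 met neither call. Its catalytic head, F1, is built from alpha, beta, gamma, delta and epsilon subunits. Atp5b, the beta subunit that carries the catalytic sites (ENSMUSG00000025393, chromosome 10, 128083273 to 128090391), had 38 counts in CIH and 1668 in normoxia, a ratio of 0.341 (0.240 to 0.470). Atp5e, the small epsilon subunit of the rotor (ENSMUSG00000016252, chromosome 2, 174461072 to 174464105), had 182 counts in CIH and 149 in normoxia, a ratio of 18.3 (14.6 to 22.9). On estimated molecules the interval of Atp5e ran from 1.48 upwards and that of Atp5b from 0.00701 to 2.66. Atp5a1, the alpha subunit, had 65 counts in CIH and 1139 in normoxia, a ratio of 0.854 (0.655 to 1.10) that was 0.489 under TMM.

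Atp5d, the delta subunit, had 59 counts in CIH and 434 in normoxia, a ratio of 2.03 (1.52 to 2.68), just past the call. TMM put it at 1.17, and its exons overlap Cbarp on the opposite strand. Atp5c1, the gamma subunit that forms the rotor shaft, had 0 counts in CIH and 186 in normoxia. Per length, the order of the F1 subunits in CIH was Atp5e at 1003 TPM, Atp5d at 296, Atp5a1 at 201, Atp5b at 86.8 and Atp5c1 at 0. In normoxia it was Atp5b at 332 TPM, Atp5a1 at 306, Atp5d at 190, Atp5c1 at 82.1 and Atp5e at 71.5. The subunit with the highest level in CIH was thus the one with the lowest in normoxia. In estimated molecules, however, Atp5e amounts to 4.67 in CIH and 0.651 in normoxia, and Atp5b to 0.974 in CIH and 7.28 in normoxia, so each order rests on a handful of molecules.

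The peripheral stalk of complex V holds the F1 head still while the rotor turns. Atp5h, its d subunit (ENSMUSG00000034566, chromosome 11, 115415689 to 115419962), had 87 counts in CIH and 56 in normoxia, a ratio of 23.3 (16.4 to 33.1), with 4 near-identical copies among other transcripts. The stalk subunit Atp5f1 had 46 counts in CIH and 711 in normoxia (ratio 0.968, interval 0.703 to 1.31). Atp5j had 41 counts in CIH and 666 in normoxia (ratio 0.922, interval 0.655 to 1.26). The ratios depended on the scaling, at 0.555 for Atp5f1 and 0.528 for Atp5j with TMM, and 1.09 and 1.04 with housekeeping scaling. Atp5o, which joins the stalk to F1, had 0 counts in CIH and 536 in normoxia.

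The c ring, which turns as protons pass, is encoded by 3 genes for the same mature protein. Atp5g3 had 32 counts in CIH and 0 in normoxia, Atp5g2 had 0 in CIH and 81 in normoxia, and Atp5g1 had 0 in CIH and 2 in normoxia. The remaining membrane subunits, Atp5l (49 counts in CIH, 628 in normoxia), Atp5k (18 and 315) and Atp5j2 (5 and 123), had ratios of 1.17, 0.855 and 0.608 and none was called. Atp5l has 9 near-identical copies among other transcripts.

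Summed over all members, the subunits took 1.34% of counts in CIH and 0.946% in normoxia, 1.42 times as much. The interval of this ratio was 1.35 to 1.48 on reads, and on estimated molecules it was 0.981 to 2.02. Complex I took 0.397% in CIH and 0.220% in normoxia, a ratio of 1.80 (1.65 to 1.97 on reads). Complex III took 0.219% in CIH and 0.119% in normoxia, a ratio of 1.84 (1.63 to 2.07). Complexes I and III thus had the highest ratios of the 5 on summed counts, whereas on summed TPM the ratios were 1.71 for complex III, 1.37 for complex V and 1.23 for complex I. Complex V took 0.429% in CIH and 0.308% in normoxia (ratio 1.39, interval 1.28 to 1.51), and complex IV 0.238% in CIH and 0.231% in normoxia (ratio 1.03, interval 0.921 to 1.15). Complex II was lower, at 0.0379% in CIH and 0.0655% in normoxia, a ratio of 0.579 (0.434 to 0.757). On estimated molecules the interval of each complex included 1. Other scalings shift all log2 ratios by a constant, which was −0.80 for TMM, −0.75 for the median of ratios and 0.17 for housekeeping genes. With TMM the ratios were 0.812 for all members, 1.03 for complex I, 1.05 for complex III, 0.797 for complex V, 0.590 for complex IV and 0.331 for complex II. The direction for all members and for complexes IV and V therefore turns with the scaling, while complexes I and III stayed above 1 and complex II below 1 under the 4 scalings used. For complex II the direction rests on Sdha, without which the ratio was 1.19. In CIH, Ndufb7 held 20.7% of the counts of complex I, with 0 counts in normoxia, and Uqcrb held 33.0% of those of complex III. Without Uqcrb, complex III gave 1.5 on total counts. TMM multiplies each ratio by 0.573, which takes the 1.5 of complex III without Uqcrb below 1. Leaving out Ndufb7 takes 20.7% off the CIH side of complex I alone, which puts its TMM ratio of 1.03 below 1. The directions of complexes I and III with TMM (1.03 and 1.05) thus rest on 1 member each.

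**Figure D3:**
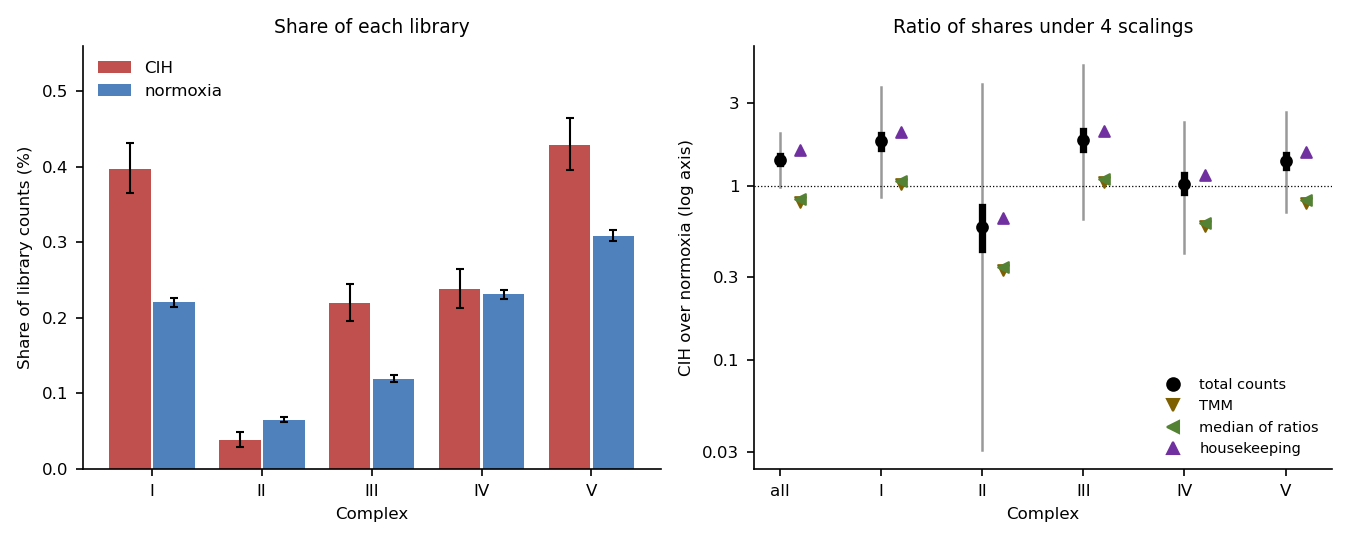
Share of total counts in percent with exact 95% intervals for each complex in CIH and normoxia, and the ratio of CIH over normoxia on a log axis under 4 scalings, with intervals on reads in black and on estimated molecules in grey. Complex II lies below 1 under each scaling, and complexes I and III lie between 1.03 and 2.07.

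The make-up of the pathway within a library does not depend on scaling. Complex I held 29.6% of all member counts in CIH and 23.3% in normoxia, and complex III 16.4% in CIH and 12.6% in normoxia. Complex IV held 17.7% in CIH and 24.4% in normoxia, and complex II 2.83% in CIH and 6.93% in normoxia. Complex V held 32.0% in CIH and 32.6% in normoxia, and was the largest in both by counts. Intervals on estimated molecules overlapped between the libraries for each complex. Per length, complex IV held 24.7% of the summed TPM in CIH and 34.6% in normoxia, and complex I 28.9% in CIH and 26.8% in normoxia.

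**Figure D4:**
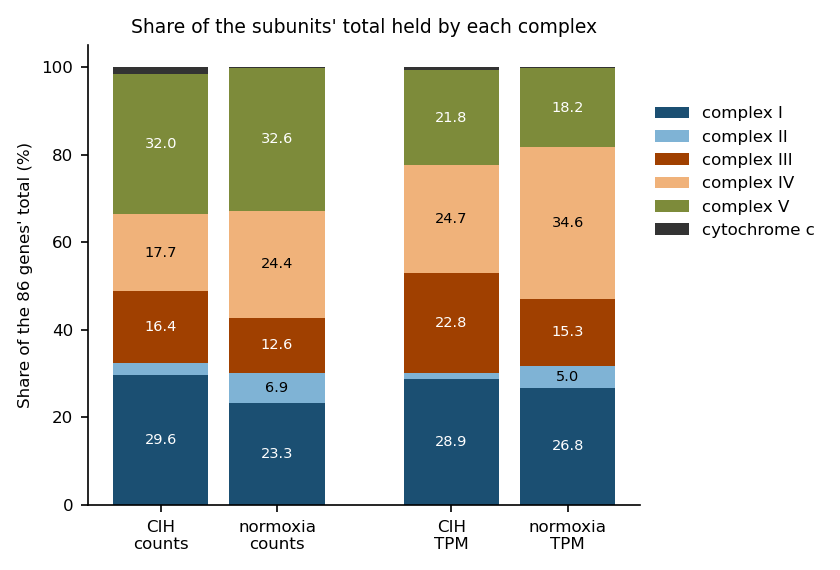
Percent of the summed member counts and of the summed member TPM held by each complex in CIH and in normoxia. Complexes I and III hold more and complexes II and IV less of the member counts in CIH than in normoxia.

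The mitochondrial genome supplies the core of complexes I, III and IV, and the nuclear and mitochondrial subunits were set side by side. Nuclear members made up 68.8% of the summed nuclear and mitochondrially encoded subunit counts in CIH and 34.0% in normoxia, with intervals on estimated molecules of 56.8% to 79.2% in CIH and 28.3% to 40.0% in normoxia. By complex the nuclear share was 51.1% in CIH and 23.0% in normoxia for complex I, 84.6% and 25.9% for complex III, and 55.9% and 23.3% for complex IV. The molecule intervals of CIH and normoxia lay apart for complex III (48.5% to 98.9% in CIH and 13.9% to 41.4% in normoxia) and for the sum, and overlapped for complexes I and IV. The nuclear members summed to 1944 counts in CIH and 20543 in normoxia, and the mitochondrially encoded ones to 881 in CIH and 39937 in normoxia. mt-Cytb of complex III had 58 counts in CIH and 7393 in normoxia, and mt-Co1 of complex IV had 272 in CIH and 16535 in normoxia. The mitochondrial side of complex IV rests on mt-Co1, as mt-Co2 and mt-Co3 had 0 counts in CIH and 1 and 6 in normoxia. Near-identical copies were sought for the nuclear members alone. Whether reads of the mitochondrially encoded genes were shared with or lost to such copies was not tested. The nuclear shares are therefore shares of the counts and need not be shares of expression. mt-Nd5 of complex I had 0 counts in CIH and 3430 in normoxia, whereas mt-Nd6, the subunit read from the other strand, had 118 in CIH and 688 in normoxia, a ratio of 2.57. The mitochondrial partners of complex V, mt-Atp6 and mt-Atp8, had 0 counts in CIH and 3 and 0 in normoxia, so no comparison was made for it.

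**Figure D5:**
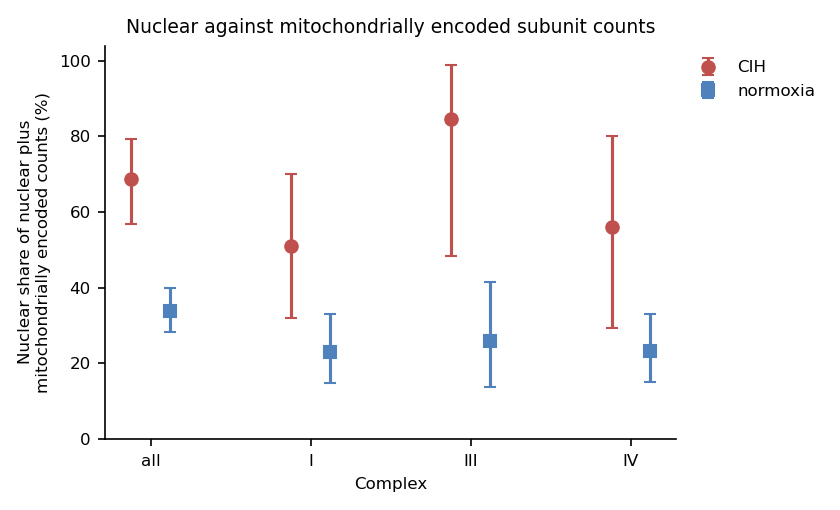
Nuclear share, in percent, of the summed nuclear and mitochondrially encoded subunit counts in CIH and normoxia, for all complexes together and for complexes I, III and IV, with exact 95% intervals on estimated molecules. The CIH point lies above the normoxia point each time, and the intervals overlap for complexes I and IV.

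Genes that serve the pathway without being subunits were set beside the members, with 2050 genes of all kinds counted in CIH and 4640 in normoxia. Of 50 assembly factors, which build the complexes, 3 were counted in CIH and 13 in normoxia, and 1 in both. That gene was Ndufaf5, an assembly factor of complex I, with 61 counts in CIH and 466 in normoxia (ratio 1.96). Higd2a and Tmem126b, the other factors with most counts, had 0 counts in CIH and 644 and 535 in normoxia. Higd1a, a respiratory chain factor, had 45 counts in CIH and 0 in normoxia, and Ndufaf8 had 32 and 0, both too few for a call. Of the 12 with enough counts 0 were called higher and 11 lower, where 16.1% and 66.9% of all genes with enough counts were. Of 17 mitochondrial carriers, porins and membrane proteins, 1 was counted in CIH and 12 in normoxia, and 1 was called higher and 9 lower. The 1 counted in both was Chchd2, with 91 counts in CIH and 180 in normoxia (ratio 7.57). Phb2, a prohibitin of the inner membrane, had 0 counts in CIH and 1081 in normoxia, the phosphate carrier Slc25a3 had 0 and 908, and the ADP/ATP carrier Slc25a5 had 0 and 663.

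Of 17 enzymes of the tricarboxylic acid cycle, which feeds the complexes, 2 were counted in CIH and 10 in normoxia. Mdh2, malate dehydrogenase, had 63 counts in CIH and 400 in normoxia (ratio 2.36), and Ogdh had 48 in CIH and 32 in normoxia (ratio 22.5). These were called higher and the other 7 with enough counts lower, led by Dld with 0 counts in CIH and 445 in normoxia and Idh3g with 0 and 319. Of 19 regulators of mitochondrial transcription and biogenesis, 2 were counted in CIH and 4 in normoxia. Yy1 had 26 counts in CIH and 298 in normoxia (ratio 1.31), and Nrf1, the gene of the factor whose motif is given above, had 0 counts in CIH and 476 in normoxia. Lrpprc, which stabilises mitochondrial mRNA, had 0 counts in CIH and 411 in normoxia. Its partner Slirp had 16 in CIH and 0 in normoxia. By the same call, 0 of the 4 regulators with enough counts were higher and 2 were lower. Over all genes with enough counts, 16.1% were called higher and 66.9% lower. Counted genes of these lists had a median of 264 counts in normoxia for the assembly factors, 347.5 for the carriers, 250 for the cycle and 354.5 for the regulators, against 252 for the subunits. At like levels in normoxia, 29 of 57 subunits, 1 of 13 assembly factors, 1 of 12 carriers, 2 of 10 cycle enzymes and 1 of 4 regulators were also counted in CIH, as were 25.0% of all genes counted in normoxia. The difference between these lists was not tested.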

How the data were processed

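The labels' protocols describe a Trizol extraction followed by the NEBNext Ultra II kit for RNA libraries. They mention no molecular identifiers, so copies of 1 molecule could not be merged. Intervals on reads take each read as independent, so they are too narrow where reads are copies of 1 molecule. With 1 library a group, no interval covers replicate spread. Tools named, per the submitters' processing notes, are bcl2fastq 2.20, STAR 2.5.2b, and featureCounts from Subread 1.5.2. The sources used here do not state the genome build, annotation or strand setting. Raw read counts per gene were deposited by the authors, as were TPM values of the same genes, which were 0 wherever the counts were. Positions came from GENCODE M21 on GRCm38, which held 48970 of the 49315 gene identifiers.

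Shares carry exact Clopper-Pearson intervals and ratios exact conditional binomial intervals at 95% (scipy 1.17.1), on reads and after dividing counts by reads per estimated molecule. Alternatives used TMM from edgeR 4.0.16 and the median of ratios from DESeq2 1.42.0, for scaling factors only, and the sum of 18 housekeeping genes, 13 of them counted in both libraries. Log2 ratios used a prior count of 0.5. Near-identical copies are transcripts of other genes with at least 95% identity over 200 bases (BLAST 2.17.0), and 22 of the 86 members have one. Members counted in both libraries or in CIH alone were to be given in full, with the 3 of most counts in normoxia alone per complex. The values of 1 member are not reported here, though it stays in all sums and counts. Promoters are shown in place of the proteins first intended. Members, lists and rules were chosen with earlier results of these data known.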

Additional observations from a re-analysis of the deposited data

How the results depend on the processing

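Against total counts, the ratio for all members (1.42) was 0.812 with TMM, 0.843 with the median of ratios, 1.60 with housekeeping scaling, 1.51 without the member with most counts, 1.94 on members counted in both libraries and 1.14 on summed TPM. In the same order of settings, complex I gave 1.03, 1.07, 2.03, 2.13, 2.83 and 1.23, and complex IV gave 0.590, 0.613, 1.16, 1.16, 1.5 and 0.816. Complex II gave 0.331 with TMM, 0.344 with the median of ratios, 1.19 without the member with most counts and 0.281 on summed TPM, and has no member counted in both. Complex III gave 1.05, 1.09 and 2.07 under the 3 scalings, 2.49 without the member with most counts, 3.38 on members counted in both and 1.5 without members with a near-identical copy. Complex V gave 0.797, 0.828 and 1.57 under the 3 scalings and 1.74 without the member with most counts. On summed TPM complexes III and V gave 1.71 and 1.37. Members called higher and lower numbered 12 and 32 with TMM and 13 and 29 with the median of ratios. Those called higher numbered 11 at a minimum of 200 counts and 2 on estimated molecules. On estimated molecules 0 were called lower, where members at 0 in CIH could not be. The median log2 ratio was −1.39 with TMM, −1.33 with the median of ratios and 1.04 on members counted in both. All genes counted in both with enough counts had a median of 0.70. On summed TPM, complex I held 26.8% of the members in normoxia, complex II 1.23% in CIH and 5.00% in normoxia, complex III 22.8% in CIH and 15.3% in normoxia, complex IV 24.7% in CIH and 34.6% in normoxia, and complex V 21.8% in CIH and 18.2% in normoxia. The nuclear share was 76.1% in CIH and 46.7% in normoxia without mt-Co1, and 62.1% in CIH and 30.8% in normoxia on summed TPM. The TPM make-up and nuclear share, the calls among genes counted in both, the copies and mt-Co1 were chosen after seeing the data. Of the ratios of the 29 members counted in both, 25 left their interval on reads with TMM, 23 with the median of ratios and 0 with housekeeping scaling. Of the bounds of 23 members at 0 in 1 library, 2, 2 and 0 did. The interval of a member at 0 in CIH starts at 0, so its bound could not leave downwards. Called ratios and bounds lie at least 2-fold from 1, and each scaling shifts ratios by less than that. None of them could therefore change sides of 1. The causes of these shifts were not tested, apart from the constant factor of each scaling. No paired analysis was possible because each group has 1 library, and no library could be left out. Depth limits the CIH side, where at 3 reads a member under 20.7 CPM can be missed. At 3 estimated molecules, which rest on an untested assumption, the limit is 807 CPM in CIH and 316 CPM in normoxia.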
